A study of Homo sapiens with 12 samples.

Results

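DPPA2 and DPPA4 are neighbouring protein-coding genes on chromosome 3. They were selected on the overlap of their gene bodies with the lists of nucleolus-associated domains (NADs), the stretches of DNA that come down with purified nucleoli: DPPA2 touched the naive list and DPPA4 the primed list. They are 2 of 19821 protein-coding genes placed on chromosomes 1 to 22 and X. The position of each gene in a list, which chose the pair, is therefore given as a description and not as a finding. The study used H9, an established line of human embryonic stem cells, with no treatment and no altered gene named in the labels. The medium was RSeT for naive and mTeSR for primed cells. Each state had 3 samples of nucleolar DNA and 3 of whole-cell DNA, 12 in all, and the labels do not say whether the 3 came from separate cultures. The labels tie the 6 libraries of a state to 1 list of regions. The values below therefore have no error between replicates, and the states could not be compared by a test. RNA was not measured in these samples, so neither the naive state of the cells nor transcription of the pair could be checked here.

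DPPA2 and DPPA4 code for small nuclear proteins that bind DNA through a SAP domain and act together as a complex. They are made in pluripotent cells and early embryos and in few other tissues. In mouse embryonic stem cells they are known as activators of the Dux gene and, through it, of genes of the cleavage-stage embryo, and as factors that keep the promoters of silent developmental genes open to later use. NADs as a class are rich in silent chromatin, and a region in a list says that its DNA was called with nucleoli, not whether a gene in it was active. Whether the lists used here are rich in silent chromatin was not tested. The naive list covered 1171.4 Mb and the primed list 1326.8 Mb. Most coding genes had some overlap with each, 76.8% with the naive and 81.8% with the primed list.

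Both genes are transcribed from the minus strand, toward lower coordinates, so that DPPA4 lies upstream of DPPA2. The 250 bases before each start site are shown because these stretches differed in their place in the lists: that of DPPA4 was wholly inside a primed NAD and that of DPPA2 in no NAD of either state. Sequences are from RefSeq on GRCh38.p14, the hg38 assembly of the lists, and run 5′ to 3′ on the minus strand. Capitals mark matches to the motifs named in the next paragraph.
DPPA2 (chr3:109316518-109316767): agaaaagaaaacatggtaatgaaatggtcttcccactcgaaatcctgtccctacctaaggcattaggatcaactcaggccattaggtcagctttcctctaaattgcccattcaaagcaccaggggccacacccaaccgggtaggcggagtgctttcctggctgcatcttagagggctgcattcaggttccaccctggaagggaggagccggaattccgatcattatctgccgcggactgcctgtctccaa
DPPA4 (chr3:109337547-109337796): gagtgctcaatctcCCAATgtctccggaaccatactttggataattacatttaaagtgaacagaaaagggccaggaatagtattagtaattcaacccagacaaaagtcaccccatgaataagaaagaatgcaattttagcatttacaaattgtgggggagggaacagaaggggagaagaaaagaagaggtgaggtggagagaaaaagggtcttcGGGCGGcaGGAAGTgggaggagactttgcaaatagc

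Both stretches were poor in CpG, the dinucleotide that is methylated in mammals. DPPA2 had 7 and DPPA4 had 3, against a median of 17 over 15812 coding genes with an entry in the promoter table. As few or fewer were found in 27.7% of those genes for DPPA2 and in 16.9% for DPPA4. The GC content was 52% at DPPA2 and 43.2% at DPPA4, and the median was 62.4%. Short motifs, 7 in number and picked after the sequences had been read, were searched on both strands. DPPA2 held none of them. DPPA4 held CCAAT (the CCAAT box, in 34.4% of all the promoters), GGGCGG (bound by SP factors, in 56%) and GGAAGT (bound by ETS factors, in 21.4%), each once on the sense strand and none overlapping another. The last 2 lay within the 36 bases before the start site. Neither gene had TATAAA (9.25% of promoters), CTTTGT (SOX factors, 10.9%), ATTTGCAT (the octamer of POU factors, 1.66%) or GCCATNTT (YY1, 3.63%). A match is a match of letters and shows no binding.

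DPPA2 (chromosome 3, 109293788 to 109316517, hg38, 22.7 kb) touched 1 naive region, from 109290001 to 109310000, and no primed region. That region held 16.2 kb, or 71.3%, of the gene body. It reached 3.79 kb past the 3′ end of the gene and left the 6.52 kb next to the start site outside. The nearest primed regions lay 13.5 kb away on the DPPA4 side and 33.8 kb away on the other.

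DPPA4 (109326144 to 109339636, 13.5 kb) touched 1 primed region, from 109330001 to 109350000, and no naive region. The region held 9.64 kb, or 71.4%, of the gene body. Its layout was the reverse of that at DPPA2: the start site of the listed promoter (109337546) lay inside the region, which ran 10.4 kb past the upper end of the gene, and the 3.86 kb at the 3′ end lay outside. The annotated body extends 2.09 kb upstream of that start site, so other transcripts begin higher, also inside the region. The nearest naive regions lay 16.1 kb below, the region in DPPA2, and 10.4 kb above, where a naive region from 109350001 to 109360000 began at the base after the last one of the DPPA4 region.

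**Figure D1:**
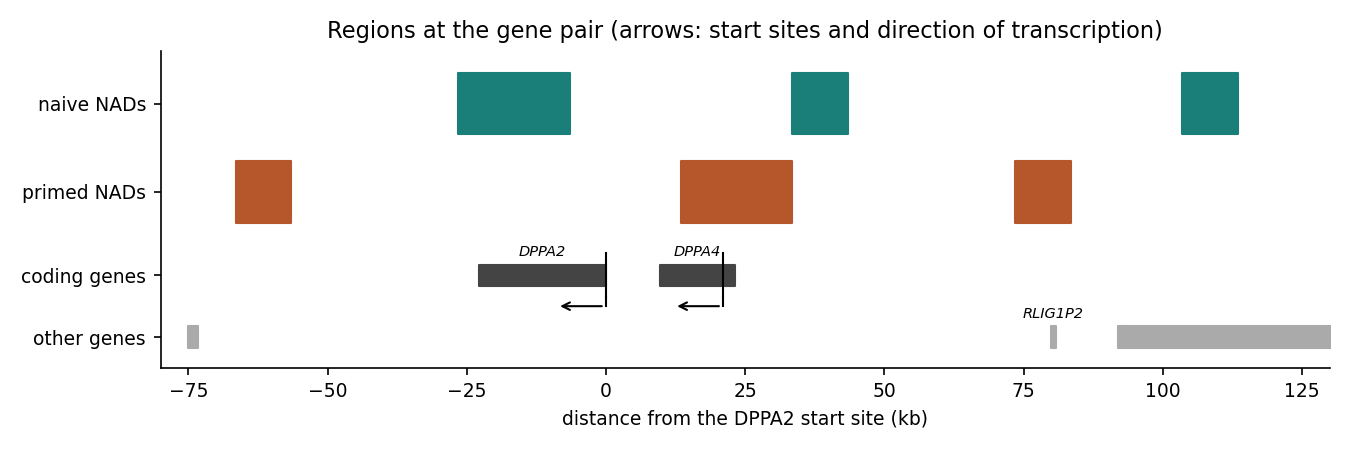
NAD regions at DPPA2 and DPPA4. The horizontal axis is the distance in kb from the DPPA2 start site, blocks are regions of the naive and primed lists and gene bodies, and arrows mark start sites and the direction of transcription. The naive block covers the 3′ part of DPPA2, the primed block covers the start of DPPA4, and 20 kb between them lie in neither list.

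All region limits in both lists fall on a 10 kb grid, so the contrast could be read bin by bin. The pair spans 5 bins. From the 3′ end of DPPA2 upward, 2 were in naive NADs alone, the next 2 in neither list and the last in primed NADs alone, and no bin was in both. The stretch in neither list, 20 kb long, held the DPPA2 promoter, the 9.63 kb between the genes and the 3′ end of DPPA4. Both regions were 20 kb long, as were 22.5% of the 61750 naive regions and 18.1% of the 29994 primed regions; 57.7% and 51.3% were of 1 bin. Nucleolar enrichment inside a region is not in the lists, so how far a bin stood above or below the calling threshold is unknown.

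The promoter of DPPA4 was in the same list as its body, as for most genes of its class. That of DPPA2 was outside the list of its body, as for a narrow majority of its class. Of coding genes with a promoter entry whose body lay in primed NADs only, 87.1% (2211 of 2538) had the promoter in a primed NAD, as DPPA4 did. Of those in naive NADs only, 46.7% (867 of 1855) had it in a naive NAD, and DPPA2 was among the rest. The rest were not divided further, so how many had the promoter in neither list, as DPPA2 did, is not given. Over all 15812 promoters, 10.9% were in naive NADs only, 34.8% in primed NADs only, 31.5% in both and 22.9% in neither.

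Set against all coding genes, each gene was in a minority class by the choice of the pair. Any overlap with a naive region was found for 76.8% of coding genes and with a primed region for 81.8%, 65.2% touched both lists and 6.57% neither. Those in naive NADs only, as DPPA2, came to 11.6% (2301 genes), and those in primed NADs only, as DPPA4, to 16.6% (3291 genes). On chromosome 3 the order turned, with 20.6% of 1064 genes in naive NADs only, 14.9% in primed NADs only, 54.2% in both and 10.2% in neither. Gene length bears on any overlap, so genes of 0.5 to 2 times the length of each were also counted. Around the length of DPPA2 there were 6975, of which 16.7% were in primed NADs only, 65.2% in both, 6.48% in neither and 11.6% in naive NADs only; 1.61% (112 genes) were in naive NADs only with at least as large a share of the body. Around the length of DPPA4 there were 6360, of which 10.1% were in naive NADs only, 58.4% in both, 8.51% in neither and 23.0% in primed NADs only; 15.7% (999 genes) were in primed NADs only with at least its share. The 1.61% and the 15.7% come from different length classes, and each rests on the overlap by which the member was chosen. They therefore do not compare the naive with the primed list.

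**Figure D2:**
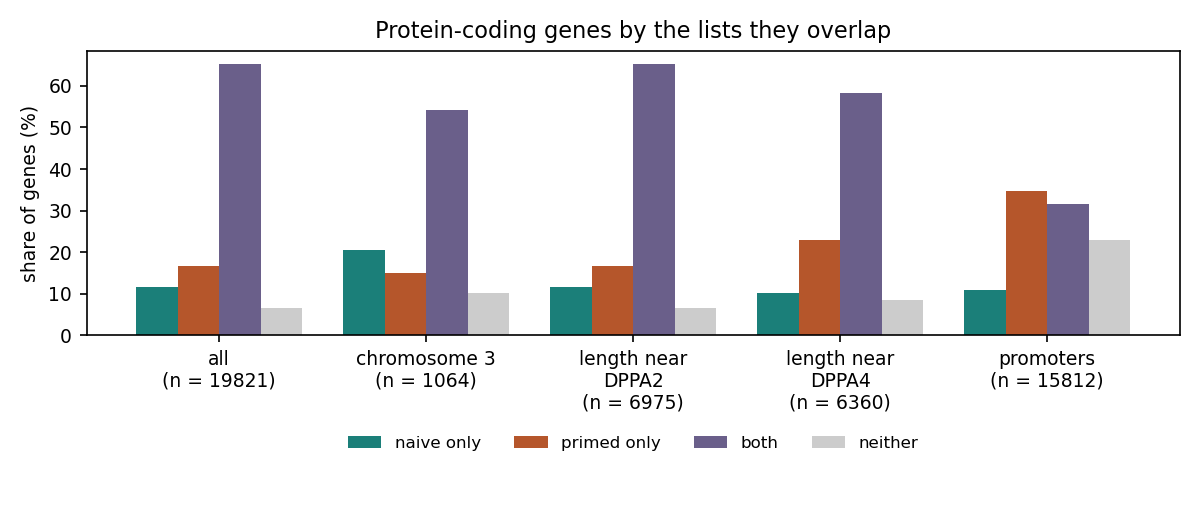
Share of protein-coding genes (vertical axis, percent) that overlap naive regions only, primed regions only, both or neither. Groups are all coding genes, those of chromosome 3, those of 0.5 to 2 times the length of DPPA2 or of DPPA4, and promoters. Most gene bodies touch both lists, and on chromosome 3 naive-only genes (20.6%) outnumber primed-only genes (14.9%).

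A split between neighbours was uncommon but not particular to this pair. Among 17400 pairs of adjacent coding genes whose bodies do not overlap, 265 (1.52%) had 1 gene in naive NADs only and the other in primed NADs only. On chromosome 3 the share was 2.50% (23 of 921 pairs), and among pairs no farther apart than DPPA2 and DPPA4 it was 1.33% (85 of 6404). Among the 2029 pairs in which both genes lay in 1 list only, 13.1% were split, so that such neighbours mostly lay in the same list. By the distance between the bodies, DPPA2 and DPPA4 ranked 85 among the 265. The 5 closest split pairs were TMEM59 and TCEANC2, GORASP1 and TTC21A, SLC22A13 and SLC22A14, NEMP2 and NAB1, and TDG and GLT8D2, with 0.034 to 0.112 kb between them. SLC22A13 and SLC22A14, organic ion transporter genes on chromosome 3, are, like DPPA2 and DPPA4, neighbours of 1 family, with the first in naive and the second in primed NADs.

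The distance from each gene to the other list was set beside that of coding genes in the same class. DPPA2 was 13.5 kb from the nearest primed region. That region is the one of DPPA4, by which the pair was chosen, so this distance is no finding about DPPA2. On its other side the nearest primed region lay 33.8 kb away. The median distance of naive-only coding genes was 50.5 kb (quartiles 11.4 and 203 kb), and 73.3% were at least as far as 13.5 kb. DPPA4 was 10.4 kb from the nearest naive region. The median of primed-only genes was 7.36 kb (quartiles 2.88 and 15.6 kb), and 37.8% were at least as far. The naive region of DPPA2, by which the pair was chosen, lay 16.1 kb below DPPA4. The choice thus kept the DPPA4 distance from being larger than that, and its rank is no finding either. The distances of 13.5 and 10.4 kb both came to little more than 1 bin of the grid.

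The genes whose shares were most like those of DPPA2, by the distance between the naive and primed percents over the 2 lists and among genes of like length, were ST6GALNAC2 (a sialyltransferase gene, 71.4% naive), IFI44 (induced by interferon, 71.5%) and REST (the repressor of neuronal genes, 71.6%), all at 0% primed. For DPPA4 they were KCNK17 (a potassium channel gene, 71.3% primed), PSMC1 (a proteasome subunit gene, 71.2%) and C3orf18 (71.8%), all at 0% naive. With only 2 lists, many genes share any such pattern, and no common role follows from it.

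The stretch of 500 kb on either side of the pair (108793788 to 109839636, 1045.8 kb in all) held only short regions of both lists. Naive NADs covered 210 kb of it, or 20.1%, in 16 regions, of which 11 were 10 kb and 5 were 20 kb long. Primed NADs covered 110 kb, or 10.5%, in 10 regions, of which 9 were 10 kb long. The only primed region of 20 kb in the stretch was that of DPPA4. The flank beyond DPPA2 was 24.8% naive and 8% primed, and the flank beyond DPPA4 was 14% naive and 12.1% primed.

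**Figure D3:**
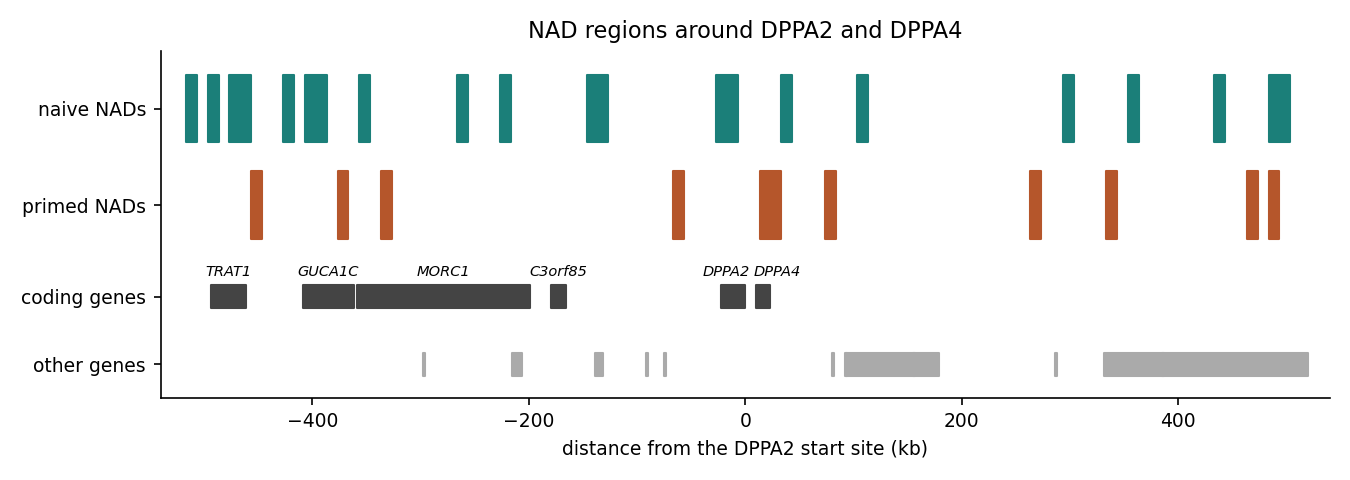
Regions of both lists over DPPA2 and DPPA4 and 500 kb on either side. The horizontal axis is the distance in kb from the DPPA2 start site, and rows show naive regions, primed regions, coding genes and other annotated genes. Along the stretch, 1 of 16 naive regions overlaps a primed one. The lists cover only 20.1% and 10.5% of it, and 21.6% of windows of the same length had 1 shared bin or none.

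Of the 105 grid bins that the stretch touches, 21 were in naive NADs, 11 in primed NADs, 1 in both and 74 in neither. Both lists covered little of the stretch, which limits how far they can coincide. Across the genome, 21.6% of windows of the same length had 1 shared bin or none. The shared bin, 109800001 to 109810000, lay in the long noncoding RNA gene LOC124906267, far from the pair. In 2 further places a naive and a primed region met end to end, once above DPPA4 and once above TRAT1, at 108860000. Around the pair, regions of both lists alternated. The naive step at DPPA2 and the primed step at DPPA4 were fixed by the choice of the pair. How often other stretches alternate was not counted. Going up the chromosome, a primed region at 109250001 to 109260000 was followed by the naive region of DPPA2, the primed region of DPPA4, the naive region at 109350001, a primed region at 109390001 to 109400000 and a naive one at 109420001 to 109430000.

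Compared with windows of 105 bins at 10 kb steps (290335 windows that held a gene or a region, overlapping and so not independent), the stretch was low in naive NADs. Its 21 naive bins compared with a median of 40, and 4.98% of windows had as few; with the 10289 windows without gene or region counted at 0, a choice made after seeing the data, 8.23% had. Its 11 primed bins compared with a median of 42, and 29.9% of windows had as few (32.3% with those windows counted). Primed windows were often nearly empty or nearly full. The single shared bin compared with a median of 16 (21.6% of windows had 1 or none). Among the 19720 windows of chromosome 3 the medians were 33 naive and 18 primed bins, and 10.8% and 43.3% of windows had as few. The primed count was thus near the middle for this chromosome. The stretch held 1.91 times as many naive as primed bins, and 35.4% of the windows had a ratio at least as high. That share includes windows with naive bins but no primed bin, for which no ratio is defined. In all, 19972 windows had no primed bin.

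**Figure D4:**
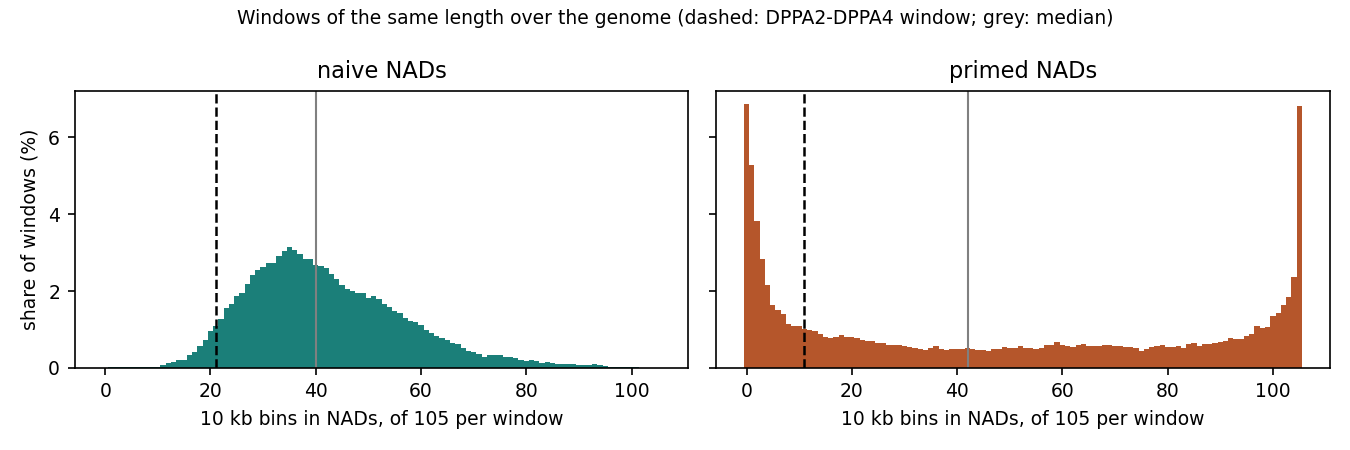
Number of 10 kb bins in naive (left) and primed (right) NADs, horizontal axis, in windows of 105 bins that held a gene or a region; the vertical axis is the percent of windows. The dashed line is the window around DPPA2 and DPPA4 (21 naive and 11 primed bins) and the grey line the median (40 and 42). The naive count lies in the lower tail, and the primed count in a broad distribution with peaks at both ends.

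Both shares were higher in wider surroundings. With flanks of 1, 2, 5 and 10 Mb the naive share was 31.8%, 34.6%, 36.9% and 37.3%, and the primed share was 12.5%, 14.8%, 15.6% and 19.9%. No primed region of at least 100 kb lay within 9713.8 kb of the pair, and the nearest of at least 50 kb was 7333.8 kb away, at 101910001 to 101960000. The nearest naive region of at least 50 kb, 108150001 to 108200000, was 1093.8 kb away.

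The stretch touched 18 annotated genes, 6 of them coding. By any overlap, 4 of the 18 were in naive NADs only, 2 in primed NADs only, 3 in both and 9 in neither, beside 14.7%, 20.7%, 47.2% and 17.4% of all 58419 RefSeq genes. Of the other coding genes, TRAT1, an adaptor of the T cell receptor, had 69% of its body (22.2 kb) in naive NADs and 0% in primed, and its promoter was in a naive NAD as well. GUCA1C, an activator of retinal guanylate cyclase, had 42.2% in naive and 21.1% in primed NADs. MORC1, an ATPase that silences transposons in male germ cells, is the longest, 159.9 kb, and had 18.8% and 6.25%. The promoters of GUCA1C and MORC1 were in neither list, and C3orf85, the nearest coding gene below DPPA2, was outside both with body and promoter. DPPA4, chosen for its primed overlap, was the only coding gene of the 6 with more of its body in primed than in naive NADs. Over all coding genes the median share of the body was 35.6% naive and 75.8% primed.

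**Figure D5:**
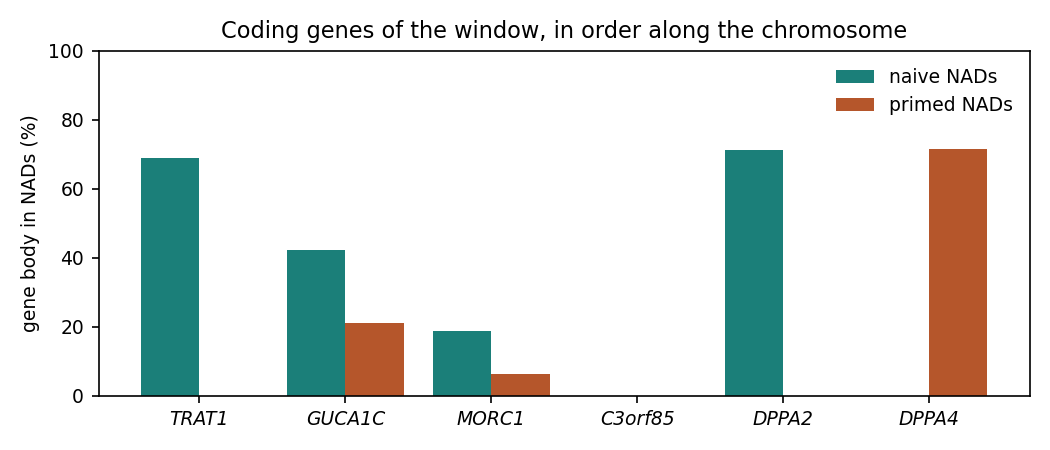
Share of the gene body (vertical axis, percent) in naive and primed NADs for the 6 coding genes that touch the stretch, in chromosome order. A missing bar is a share of 0%. DPPA2 (71.3% naive) resembles TRAT1 (69% naive). DPPA4 (71.4% primed), chosen for its primed overlap, has the only primed bar above the naive one. The medians over all coding genes are 35.6% naive and 75.8% primed.

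Among noncoding genes of the stretch, LINC00488 was wholly in a naive NAD (100%, 7.1 kb), and LINC01205 had 11.7% in naive NADs, both with 0% in primed. LOC124906267 had 21.3% in naive and 15.9% in primed NADs. The pseudogene RLIG1P2, between DPPA4 and LINC01205, was wholly in a primed NAD. The 9 genes in neither list were C3orf85, MORC1-AS1, the microRNA gene MIR4445, a snoRNA gene and 5 small pseudogenes.

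The pair was set beside the loci of the other genes that share the DPPA name (developmental pluripotency associated), with the same flanks. Around NANOG, DPPA3 and GDF3 on chromosome 12 the naive share was 32.5% and the primed share 73.9%, with a primed region of 200 kb. NANOG and DPPA3, a maternal factor that protects DNA methylation in the zygote, were wholly in primed NADs and at 0% naive, and GDF3, a TGF-beta family ligand, was at 100% primed and 3.62% naive. Around KHDC3L, DPPA5 and OOEP on chromosome 6, genes of the egg and early embryo, the shares were 22.3% naive and 18.2% primed, beside 20.1% and 10.5% around DPPA2 and DPPA4. There KHDC3L was wholly in a naive NAD with 0% primed, DPPA5 was in neither and OOEP had 5.43% naive and 19.4% primed. The difference between these loci was not tested, since a list gives 1 value per locus.

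Of the 4 coding genes named DPPA, DPPA2 was in naive NADs, DPPA3 and DPPA4 were in primed NADs and DPPA5 in neither. Of all coding genes, 76.8% touched the naive list and 81.8% the primed list. DPPA2 and DPPA4 were chosen for their place in the lists, so only DPPA3 and DPPA5 add to this. Of 6 pseudogenes of DPPA2 and DPPA4 on the chromosomes analysed, DPPA4P1 was in naive NADs only, DPPA4P3 in primed NADs only, DPPA2P2 and DPPA2P3 in both and DPPA2P4 and DPPA4P2 in neither. Over all 22 DPPA pseudogenes, 3 were naive only, 5 primed only, 5 in both and 9 in neither, against 14.7%, 20.7%, 47.2% and 17.4% of all 58419 RefSeq genes. The pseudogenes are at most 2.88 kb long, and the share of genes with any overlap depends on length.

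Genes that act around the DPPA2 and DPPA4 pathway were counted from lists drawn up with earlier results of these data known. The first held 25 regulators of DUX genes and of the 2-cell or 8-cell programme, most of them silencers or chromatin partners: 17 were in naive and 20 in primed NADs, or 68% and 80% beside 76.8% and 81.8% of all coding genes, so both shares were near or below the background. Like DPPA2 and 11.6% of coding genes, 4 were in naive NADs only: EED (70.0% of the body) and EZH2 (26%), core subunits of PRC2, the PRC1 ubiquitin ligase RNF2 (35.1%) and the chromatin remodeller SMARCA5 (39.9%). Like DPPA4 and 16.6% of coding genes, 7 were in primed NADs only: the RNA-binding protein LIN28A, the PRC1 ligase RING1, L3MBTL2 of a variant PRC1, the H3K4 methyltransferase KMT2B and the elongation factor subunit NELFA (all 100%), and MAX (54.6%) and E2F6 (54.1%), DNA-binding partners of the same variant PRC1. The remaining 13 with any overlap were in both, among them TRIM28 (100% in each), SMCHD1 (30.2% naive, 76.5% primed) and PIAS4 (68.4% and 100%), and NCL, the gene of nucleolin, was in neither. The median share of the body was 32.8% naive and 93.3% primed, beside 35.6% and 75.8% over all coding genes.

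The second list held 16 genes of the 8-cell programme: 10 were in naive and 15 in primed NADs, or 62.5% and 93.8% beside the same background. None was in naive NADs only, the state of DPPA2 and of 11.6% of coding genes. In primed NADs only, the state of DPPA4 and of 16.6% of coding genes, were 5, namely ARGFX (53.2%), CCNA1 (25.3%), DUXB (19.3%), H3Y1 and TRIM43 (both 100%). H3Y1 and TRIM43 have close copies whose reads cannot be placed with certainty. ARGFX is, like DPPA4, on chromosome 3. Of those in both lists, DPRX, DUXA, LEUTX, TPRX1, TPRX2, ZNF296, ZSCAN4 and ZSCAN5B lie on chromosome 19. The counts do not allow for chromosome.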

How the data were processed

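For each cell state the authors deposited a single table of NAD regions. The labels name such a table for 6 libraries of each state under another title, and it was matched to the deposited one by the cell state in both names. Whether the named and the deposited table have the same content could not be checked. Libraries were read as 150 bp pairs from 350 bp fragments. The deposited table holds the start and end of each region on hg38 and other columns are absent, so the regions carry no score of any kind. The submitters' processing notes name BWA, SAMtools 1.10 and SICER, with no role for each. The sources used here do not state the settings, how replicates were joined or the read depth, so no value has an interval for counting or replicate error.

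Shares of gene bodies, promoters and windows in NADs were counted in base pairs (Python 3.11.15, numpy 2.4.6, pandas 2.3.3) and the functions were checked on simulated regions. Genes came from RefSeq (GRCh38.p14); 679 on unplaced or alternate scaffolds, 153 of them coding, were left out. Windows with no gene and no region, 10289 in number, were left out of ranks. Promoter entries matched 15812 of 19821 coding genes, with the first entry used where a gene had several. The pair, the lists and the comparisons were chosen with earlier results of these data known. Named genes are the pair, genes of the stretch, members of the lists, the 3 genes per member with the nearest percents and the 5 closest split pairs.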

Additional observations from a re-analysis of the deposited data

How the results depend on the processing

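Each share or count was recomputed under 7 other settings, 63 values in all. With so few bins per gene, the gene-body shares could hardly be judged for stability, so their values are given instead. Each gene was in its own list alone under 6 of 7 settings. Narrowing regions by 2 kb gave DPPA2 62.5% naive and DPPA4 56.6% primed, and widening the bodies by 5 kb 61.1% and 62.3%. Merging regions up to 50 kb apart placed DPPA4 in both lists (100% naive, and DPPA2 100% naive) and gave the stretch 46.5% naive and 18.2% primed. It left 127 split pairs, 1618 primed-only and 2265 naive-only coding genes, where the main counts were 3291 primed-only and 2301 naive-only. The 300-base promoter put DPPA2 at 0% naive and DPPA4 at 100% primed. Regions widened by 5 kb gave DPPA2 93.3% naive, DPPA4 100% primed and the stretch 35.4% naive and 20.1% primed. There were then 162 split pairs, 2188 primed-only and 2198 naive-only genes. Without regions of 1 bin the stretch fell to 9.56% naive and 1.91% primed, and primed-only genes came to 5886 beside 2416 naive-only. With 1 Mb flanks the naive share was 31.8%. Requiring 50% of the body gave 531 split pairs and 6957 primed-only genes beside 1702 naive-only. The balance of primed-only to naive-only genes thus depended on the setting. Counting all RefSeq genes gave 1076 split pairs, 8562 naive-only and 12119 primed-only genes. Wider regions, more genes or a stricter overlap change these counts by construction. No paired analysis was possible because each state has 1 list, with no column per replicate, and for the same reason no replicate could be left out. Calls at 1 bin cannot be weighed, since depth and signal are unknown.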
